A study of Mus musculus with 17 samples.

Results

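Grap2, Ccdc184, Gcnt1, Gpr34, Sptssa, Ipmk, Tespa1, Slamf1 and Lingo4 are 9 of the 54446 genes in bulk count tables from innate lymphoid cells (ILCs) of mouse skin. They were chosen by their counts in reporter-positive and reporter-negative cells of Gata3flox mice, where libraries of a group lay close together and the groups lay apart, so that difference is described here and not tested. All 9 genes passed the filter on low counts in both bulk fits. ILCs are tissue-resident lymphocytes that carry no antigen receptor.

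Bulk RNA-seq was available for 14 libraries in 6 groups on a C57BL/6 background, made from sorted live, lineage-negative, γδTCR-negative, CD90+ skin cells. RORγt-fm mice gave RORgt-fm_pos (n = 2) and RORgt-fm_neg (n = 2), called intact below. RORγt-fmΔGata3 mice gave RORgt-fm_pos_Gata3flox (n = 3) and RORgt-fm_neg_Gata3flox (n = 3). WT (n = 2) and Gata3KO (n = 2), from C57BL/6 and Gata3fl/flCreERT2 mice, were both given 5 mg tamoxifen 3 times. The labels do not spell out fm, which Cre acts in the RORγt-fmΔGata3 mice, which exons are floxed, the promoter of CreERT2, the animals' age, or whether replicates are separate animals. The p-values therefore measure the spread between libraries, which may be technical. Single-cell data came from 1 library of skin ILCs and 1 dorsal skin library each from day 0 and day 10 after depilation.

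Bulk libraries held 14450612 to 44098274 counts in genes. Gata3 itself stood at 154 to 307 CPM (counts scaled to the library total) in RORgt-fm_pos_Gata3flox against 164 and 303 CPM in RORgt-fm_pos, so whole-gene counts did not separate these groups. In Gata3KO it stood at 299 and 314 CPM against 381 and 581 CPM in WT. The ILC markers Thy1, Il7r, Id2, Ptprc, Il2rg and Gata3 were detected in all 14 libraries, but transcripts of other skin cells were present too. Summed fibroblast markers reached 6230 to 8677 CPM in RORgt-fm_neg against 71.6 to 187 CPM in RORgt-fm_pos, where 3 to 6 of the 10 markers were at 0, and keratinocyte markers 2399 to 4266 against 315 to 352 CPM. The deposited file names carry an L1, L2 or L4 mark, which may be a lane: all 5 reporter-positive libraries were L2, and reporter-negative libraries were mixed.

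Several of the genes act close to a receptor. Grap2 (also called GADS) is an adaptor that links LAT to SLP-76 after antigen receptor triggering, and Tespa1 takes part in the calcium response of the same pathway in thymocytes. Slamf1 is a self-binding receptor of the SLAM family, and Gpr34 is a G protein-coupled receptor for lysophosphatidylserine. Gcnt1, Sptssa and Ipmk belong to metabolism: Gcnt1 builds the core 2 branch of O-glycans used for selectin ligands, Sptssa is a small activating subunit of serine palmitoyltransferase, which starts sphingolipid synthesis, and Ipmk is a kinase of inositol phosphates. Lingo4 encodes a leucine-rich repeat membrane protein related to the neuronal LINGO1, and Ccdc184 a coiled-coil protein of little-known function.

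The genes lie on 7 chromosomes of mm10. In the files' coordinates Grap2 spans chr15:80572594-80652854 and Ccdc184, a gene of a single exon, chr15:98167158-98170134. Gcnt1 spans chr19:17326141-17356667 on the minus strand, Gpr34 chrX:13632089-13640858, and Sptssa chr12:54645392-54656573 on the minus strand. Ipmk spans chr10:71347763-71433327, Tespa1 chr10:130322870-130364111, Slamf1 chr1:171767127-171801184 and Lingo4 chr3:94398517-94404501. Gpr34 lies inside Cask on the opposite strand with 0 shared exon bases, and Cask ranged from 0.179 to 16.5 CPM. Lingo4 shares 79 of its 3645 exon bases with Gm43401 on the opposite strand, which ranged from 0 to 6.16 CPM. The sources used here do not give the strandedness of the counting, so reads in these overlaps cannot be assigned.

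RefSeq promoters (GRCm38.p6) were matched for 7 of the 9 genes; Gpr34 and Tespa1 had no entry. The 150 bases before the RefSeq start are shown for Grap2 and Slamf1, whose levels followed each other over the RORgt-fm libraries, and for Ipmk, which ran against them. Ipmk was not alone in this: Ccdc184, Gcnt1, Sptssa and Tespa1 also ran against them. The windows shown hold 0, 5 and 0 exon bases of the files' gene models.
Grap2, chr15:80623333-80623482, plus strand: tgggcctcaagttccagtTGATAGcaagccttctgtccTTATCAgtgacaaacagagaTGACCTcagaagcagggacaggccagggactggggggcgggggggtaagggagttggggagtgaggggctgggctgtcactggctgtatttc
Slamf1, chr1:171766982-171767131, plus strand: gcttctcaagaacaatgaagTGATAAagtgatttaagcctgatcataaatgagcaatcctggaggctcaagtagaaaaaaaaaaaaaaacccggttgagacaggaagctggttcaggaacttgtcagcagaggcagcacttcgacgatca
Ipmk, chr10:71347613-71347762, plus strand: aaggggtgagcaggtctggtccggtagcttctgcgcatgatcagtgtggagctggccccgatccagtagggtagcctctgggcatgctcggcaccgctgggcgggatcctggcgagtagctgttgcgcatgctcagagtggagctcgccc
Capitals mark the motif matches described next. In the Grap2 window TGACCT reads as the nuclear receptor element AGGTCA on the other strand, with its first base at position -92 from the start, which lies inside the gene's span in the files. Windows from 250 bases before to 50 after each start were searched on both strands. AGGTCA occurs in 16.3% of 32851 promoters and was found in the Grap2 window only among the 9 windows of these genes. AGATAA, one of the forms bound by GATA factors, occurs in 11.2% of promoters, the RUNX form TGTGGT in 16.8%, and the TCF form CTTTGA in 16.0%, and none of these was found in the 9 windows. The other GATA forms were searched after the windows had been seen. TGATAA occurs in 9.05% of promoters and was found at position -130 of Slamf1 and, on the other strand, at -112 of Grap2. TGATAG occurs in 7.29% of promoters and was found at -132 of Grap2. The remaining form, AGATAG, occurs in 8.95% and was found in no window. At least 1 of the 4 GATA forms occurs in 29.8% of all promoters. A match here describes letters and is no evidence of binding.

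The comparison that chose the genes set RORgt-fm_pos_Gata3flox against RORgt-fm_neg_Gata3flox. Grap2, Gpr34, Slamf1 and Lingo4 were higher in every reporter-positive library than in any reporter-negative library, and Ccdc184, Gcnt1, Sptssa, Ipmk and Tespa1 were lower. Such separation, in either direction, was found for 18.2% of 17456 tested genes. Over all tested genes 63 were called there (0.361%, by edgeR's quasi-likelihood test at a Benjamini-Hochberg adjusted p under 0.05). The 9 genes were picked on this difference, so no call is given for them. The tests in intact mice below take their estimate of spread partly from these same libraries.

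**Figure D1:**
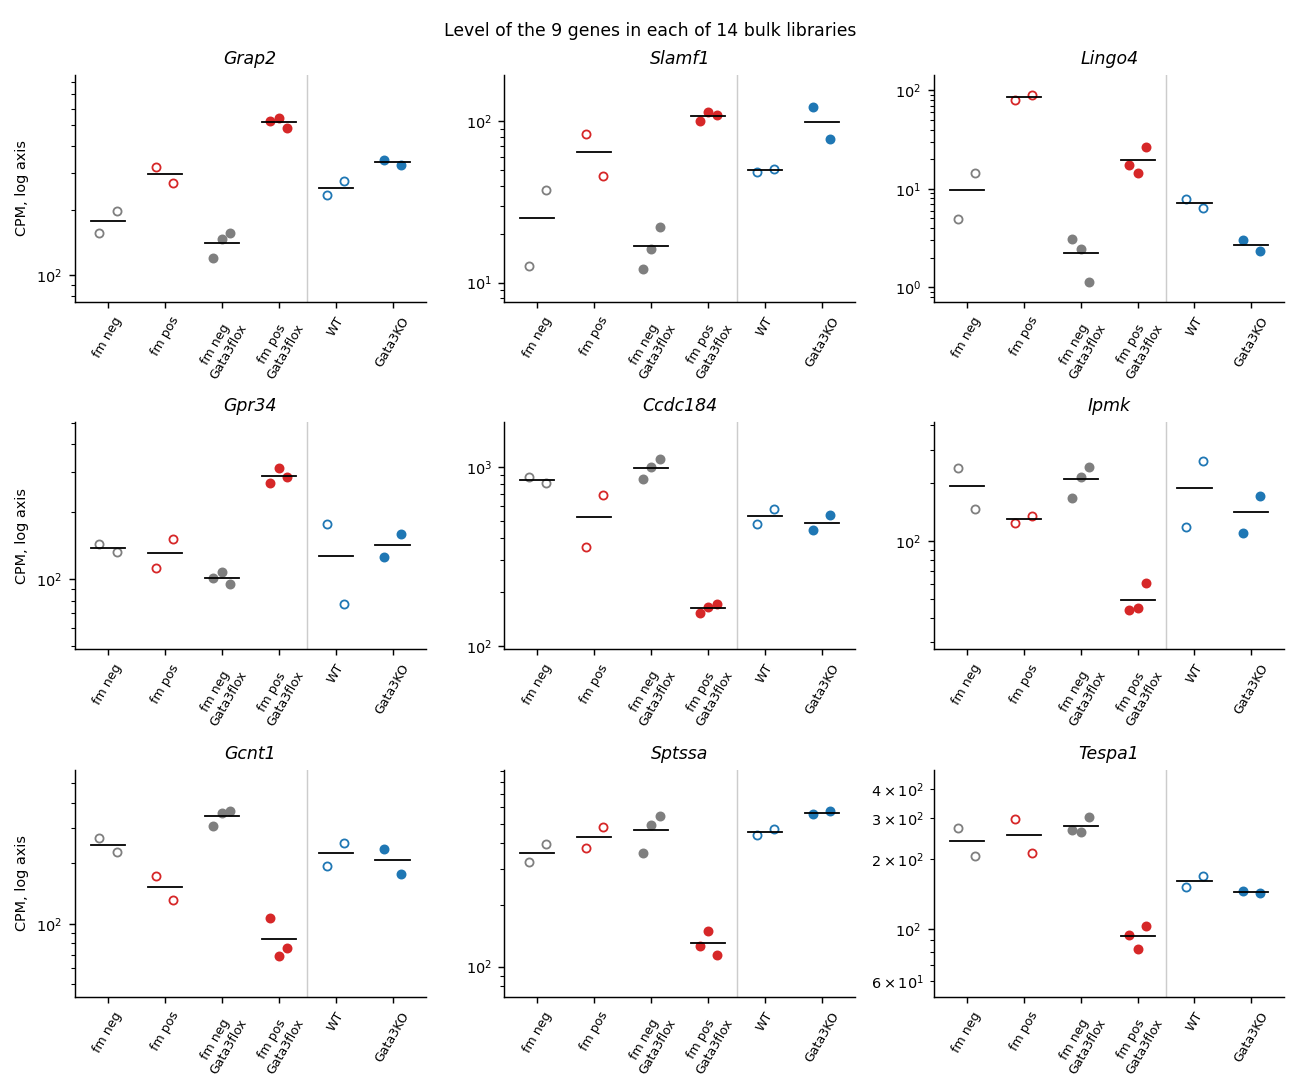
Level of each gene in every bulk library, in CPM on a log axis; points are libraries, bars are group means, open points are intact or WT and filled points Gata3flox or Gata3KO. The 3 filled red points of RORgt-fm_pos_Gata3flox stand apart from all other RORgt-fm libraries for every gene except Lingo4, which was highest in intact RORgt-fm_pos.

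Grap2, the adaptor, was high with the reporter and higher still with the reporter and Gata3flox. It stood at 527, 541 and 486 CPM in RORgt-fm_pos_Gata3flox and at 119.7, 147 and 157 CPM in RORgt-fm_neg_Gata3flox. In intact mice it stood at 321 and 270.3 CPM in RORgt-fm_pos and at 157 and 199 CPM in RORgt-fm_neg. The intact groups did not overlap, with reporter-positive libraries again the higher. The log2 fold change was 0.73 ± 0.19 (SE), which missed the threshold (edgeR adjusted p = 0.0824, range over the alternatives 0.0151 to 0.337). After tamoxifen, Grap2 stood at 346 and 327 CPM in Gata3KO and at 237 and 274 CPM in WT. These groups were also apart, with a log2 difference of 0.40 ± 0.20 (edgeR adjusted p = 0.874).

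Slamf1, the SLAM receptor, followed the same order of groups. Its libraries held 101, 114 and 110.2 CPM in RORgt-fm_pos_Gata3flox and 12.2, 16.1 and 22.1 CPM in RORgt-fm_neg_Gata3flox. The intact values were 84.1 and 46.0 CPM for RORgt-fm_pos and 12.7 and 37.7 CPM for RORgt-fm_neg, with no overlap but with a wide spread inside each group. The difference was 1.37 ± 0.50 on the log2 scale and was not called (edgeR adjusted p = 0.175, range 0.0265 to 0.612). It was 0.79 without RORgt-fm_neg library 1, 0.88 without RORgt-fm_pos library 1, and 2.37 without RORgt-fm_neg library 2, where it was called (edgeR adjusted p = 0.0345). Slamf1 is also a T cell gene, and T cell markers summed to 1385 and 296 CPM in the same RORgt-fm_pos libraries, and to 664 and 583 CPM in RORgt-fm_neg. The RORgt-fm_pos library with more T cell transcripts had more Slamf1, whereas in RORgt-fm_neg it had less; their part in the result was not tested in bulk. Slamf1 was 122 and 77.3 CPM in Gata3KO and 48.6 and 50.6 CPM in WT. The log2 difference of 1.01 ± 0.32 had an unadjusted p under 0.05, unlike the other genes listed, and did not pass adjustment (edgeR adjusted p = 0.585).

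Tespa1, the calcium pathway protein, set RORgt-fm_pos_Gata3flox apart from everything else in the RORgt-fm mice. It stood at 94.8, 81.9 and 103 CPM there and at 266, 262 and 303 CPM in RORgt-fm_neg_Gata3flox. In intact mice the values were 296 and 213 CPM in RORgt-fm_pos and 272 and 207 CPM in RORgt-fm_neg. The intact libraries overlapped, with a log2 difference of 0.09 ± 0.22 (edgeR adjusted p = 0.931). Gata3KO held 145 and 143 CPM and WT 152 and 169.8 CPM, a log2 difference of -0.16 ± 0.21 that did not pass (edgeR adjusted p = 0.9999).

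Gpr34, the lysophosphatidylserine receptor, was high where Tespa1 was low. It stood at 268, 315 and 287 CPM in RORgt-fm_pos_Gata3flox and at 101, 107 and 94.7 CPM in RORgt-fm_neg_Gata3flox. Intact libraries held 112 and 150.2 CPM (RORgt-fm_pos) and 143 and 133 CPM (RORgt-fm_neg). These overlapped, and the log2 difference was -0.08 ± 0.19 (edgeR adjusted p = 0.935). WT spanned 177 and 77.4 CPM, a range that took in both Gata3KO libraries at 125 and 159 CPM.

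Among the enzymes, Gcnt1 was lower with the reporter in both genetic settings. It stood at 107, 69.4 and 75.5 CPM in RORgt-fm_pos_Gata3flox and at 308, 355 and 366 CPM in RORgt-fm_neg_Gata3flox. The intact values were 174 and 132 CPM in RORgt-fm_pos and 266 and 228 CPM in RORgt-fm_neg. The groups were apart, but the log2 difference of -0.69 ± 0.24 was not called (edgeR adjusted p = 0.164, range 0.0326 to 0.377). WT (195 and 253.5 CPM) and Gata3KO (237 and 176 CPM) overlapped.

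Ipmk, the inositol phosphate kinase, went the same way with wider intact spread. It stood at 44.0, 45.0 and 60.6 CPM in RORgt-fm_pos_Gata3flox and at 169, 215 and 245 CPM in RORgt-fm_neg_Gata3flox. RORgt-fm_pos held 124.5 and 136 CPM and RORgt-fm_neg 242 and 146.5 CPM. The reporter-positive libraries were the lower, by -0.58 ± 0.28 on the log2 scale (edgeR adjusted p = 0.285), and by -0.165 without RORgt-fm_neg library 1. WT spread over 118 and 260.4 CPM and contained Gata3KO library 2 at 173 CPM, with library 1 at 110.3 CPM just below.

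Sptssa, the serine palmitoyltransferase subunit, was low in RORgt-fm_pos_Gata3flox at 127, 149 and 114 CPM. RORgt-fm_neg_Gata3flox held 359, 492 and 546 CPM. In intact mice RORgt-fm_pos held 381 and 479 CPM and RORgt-fm_neg 324 and 397 CPM. These overlapped and leaned the other way (log2 difference 0.25 ± 0.24, edgeR adjusted p = 0.619). Gata3KO libraries, at 555.5 and 573.5 CPM, both lay above WT at 439.5 and 472 CPM, with a log2 difference of 0.31 ± 0.18 (edgeR adjusted p = 0.926).

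Ccdc184, the coiled-coil gene, was low with the reporter. It stood at 153, 165 and 172 CPM in RORgt-fm_pos_Gata3flox and at 857, 998 and 1109 CPM in RORgt-fm_neg_Gata3flox. The intact libraries held 358 and 693 CPM in RORgt-fm_pos and 871 and 810.4 CPM in RORgt-fm_neg. Reporter-positive libraries were the lower, and library 1 of RORgt-fm_pos stood far below library 2. The log2 difference was -0.68 ± 0.27 (edgeR adjusted p = 0.202), and it was -1.22 (edgeR adjusted p = 0.0139) without library 2 and -0.275 (edgeR adjusted p = 0.496) without library 1. Gata3KO (441 and 535 CPM) and WT (479.9 and 578 CPM) overlapped.

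Lingo4, the leucine-rich repeat gene, was the only one of the 9 that edgeR called in intact mice. RORgt-fm_pos held 79.7 and 90.6 CPM and RORgt-fm_neg 4.96 and 14.4 CPM, so Lingo4 was 8.82-fold higher (log2 difference 3.14 ± 0.63, edgeR adjusted p = 0.0327, range 2.73e-05 to 0.246). It was above the highest RORgt-fm_neg value in both RORgt-fm_pos libraries. The call was lost without RORgt-fm_neg library 1 (edgeR adjusted p = 0.0825), with only the 4 libraries compared (edgeR adjusted p = 0.246), with a replicate block (edgeR adjusted p = 0.0853), with the L mark as a covariate (edgeR adjusted p = 0.0668) and among L2 libraries (edgeR adjusted p = 0.0618). The log2 difference was 2.57 without RORgt-fm_neg library 1 and 4.11 without RORgt-fm_neg library 2, the ends of its range over the alternatives. In Gata3flox mice Lingo4 stood at 17.5, 14.4 and 26.6 CPM in reporter-positive and at 3.09, 2.43 and 1.14 CPM in reporter-negative libraries. Both were lower than their intact counterparts, which was the case for no other gene of the 9 in both reporter states. After tamoxifen, Gata3KO libraries held 3.03 and 2.34 CPM and WT libraries 7.93 and 6.38 CPM. The groups did not overlap, with a log2 difference of -1.41 ± 1.01 (edgeR adjusted p = 0.987).

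Across the intact reporter comparison, 1 of the 9 genes was called, in the higher direction. The background was 2.74% of 17456 genes called, 0.624% higher and 2.11% lower. Grap2, Slamf1 and Lingo4 were higher in both RORgt-fm_pos libraries than in both RORgt-fm_neg libraries, as were 16.2% of all tested genes. Ccdc184, Gcnt1 and Ipmk were lower in both, as were 18.9%. Each of these 6 genes pointed as it did in Gata3flox mice, and 5 of the 9 (Grap2, Ccdc184, Gcnt1, Slamf1 and Lingo4) had an unadjusted p under 0.05, as did 19.8% of all tested genes. Gpr34, Sptssa and Tespa1 overlapped. The median log2 difference was 0.09 over the 9 genes and 0.00 over all tested genes. The RORgt-fm_neg libraries also carried the fibroblast and keratinocyte transcripts given above and more immediate early transcripts (16540 to 20640 CPM against 11940 to 15340 CPM). The part of these in the intact differences was not tested. In Gata3flox mice fibroblast markers summed to 144 to 346 CPM with the reporter and 419 to 1107 CPM without. Fewer cells of a type and less RNA per cell cannot be told apart in bulk libraries.

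Between Gata3KO and WT, edgeR called 0 of the 9 genes and 0.00% of 13272 tested genes, and 1 of the 9 and 6.89% of all tested genes had an unadjusted p under 0.05. DESeq2 called 196 genes in this comparison and 0 of the 9. Grap2, Sptssa and Slamf1 were higher in both Gata3KO libraries than in both WT libraries, as were 16.8% of genes. Tespa1 and Lingo4 were lower in both, as were 19.3%. With 2 libraries a group these counts were near the background and gave no result about the 9 genes. Summed fibroblast markers were 3978 and 1078 CPM in WT and 4272 and 3104 CPM in Gata3KO. Gata3KO library 1 carried the L4 mark and the other tamoxifen libraries L1. The part of these in the differences was not tested.

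**Figure D2:**
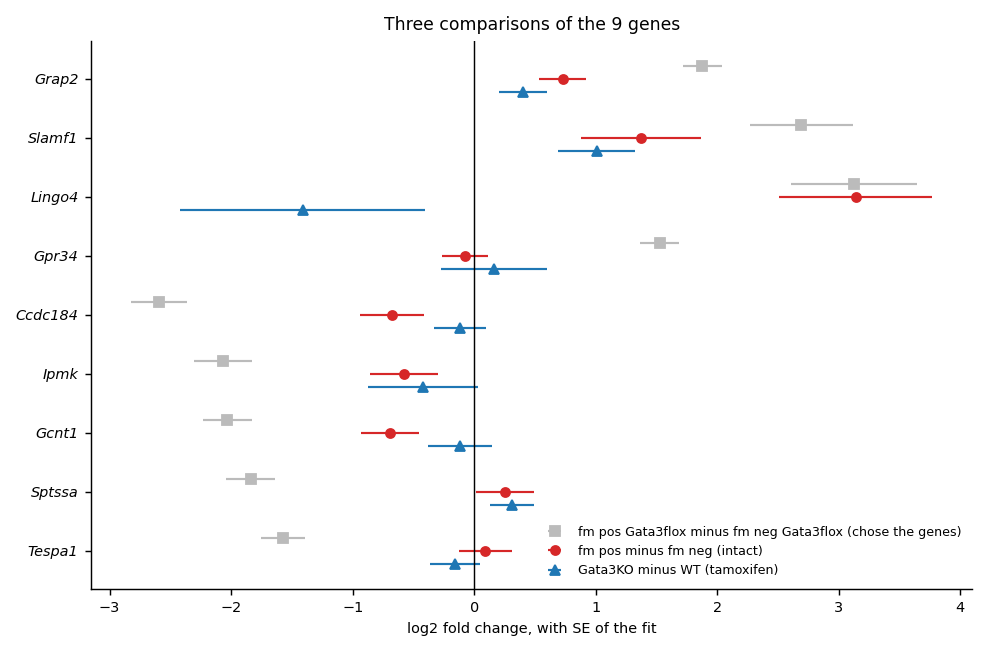
Log2 fold change with its SE for each gene in 3 comparisons; grey squares are the Gata3flox comparison that chose the genes, red circles the intact reporter comparison, blue triangles Gata3KO against WT. Grap2, Slamf1 and Lingo4 lie to the right and Ccdc184, Ipmk and Gcnt1 to the left of 0 in both reporter comparisons, while Gpr34, Sptssa and Tespa1 lie near 0 in intact mice.

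Within reporter-positive cells, Gata3flox and intact libraries did not overlap for any of the 9 genes, a pattern that the choice of the genes partly fixes. Grap2 (log2 difference 0.81 ± 0.18), Gpr34 (1.15 ± 0.18) and Slamf1 (0.74 ± 0.45) were higher with Gata3flox. Sptssa (-1.73 ± 0.21), Ccdc184 (-1.68 ± 0.24), Tespa1 (-1.45 ± 0.20), Ipmk (-1.39 ± 0.25) and Gcnt1 (-0.87 ± 0.22) were lower, and so was Lingo4 (-2.13 ± 0.52). Over all tested genes 21.2% were separated upward and 11.8% downward. Within reporter-negative cells the differences were smaller: apart from Lingo4 (-2.11 ± 0.54) they ran from -0.58 for Slamf1 to 0.47 for Gcnt1. Of the 9 genes 5 overlapped, 1 was separated upward and 3 downward, beside 39.5% of tested genes separated in either direction. These comparisons share libraries with the one that chose the genes and are given without a test. Lingo4 thus stood at a lower level with Gata3flox in both reporter states, with reporter differences of 3.13 and 3.14 on the log2 scale with and without it. Type 2 markers, which included Il5, Il13 and Il1rl1, summed to 925 to 1222 CPM in RORgt-fm_pos_Gata3flox against 2562 to 3323 CPM in RORgt-fm_pos. Type 17 markers summed to 1444 to 2112 CPM against 1246 to 1909 CPM. Whether these shifts contribute to the differences of the 9 genes was not tested.

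Per length of exon, the 9 genes spanned a wide range of levels. In RORgt-fm_pos, Sptssa was highest at 283 ± 45.8 RPKM (CPM per kilobase of exon; SD, n = 2) and Ccdc184 next at 176 ± 79.6 RPKM. Gpr34 (62.7 ± 13.0 RPKM), Grap2 (47.3 ± 5.70 RPKM), Tespa1 (40.5 ± 9.30 RPKM), Gcnt1 (27.5 ± 5.35 RPKM), Lingo4 (23.4 ± 2.13 RPKM) and Ipmk (18.4 ± 1.15 RPKM) followed. Slamf1 was lowest at 10.6 ± 4.38 RPKM. Sptssa and Ccdc184 differed by less than their summed SDs, as did neighbours from Gpr34 to Lingo4. Ccdc184 stood above Gpr34, and Lingo4, Ipmk and Slamf1 stood apart, by more. In RORgt-fm_pos_Gata3flox Gpr34 headed the order at 139 ± 11.3 RPKM, above Sptssa at 85.6 ± 11.9 RPKM and Grap2 at 82.9 ± 4.57 RPKM. In RORgt-fm_neg_Gata3flox Ccdc184 (332 ± 42.4 RPKM) and Sptssa (307 ± 63.3 RPKM) led and did not differ beyond their spread, and Lingo4 was lowest at 0.609 ± 0.272 RPKM (SD, n = 3).

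The ratio of the highest to the lowest of the group means in CPM was 38.4 for Lingo4, 6.46 for Slamf1, 6.04 for Ccdc184, 4.21 for Ipmk, 4.09 for Gcnt1, 3.67 for Grap2, 2.97 for Tespa1 and 2.88 for Gpr34. RORgt-fm and tamoxifen libraries were scaled separately, and for these 8 genes both extremes lay in the RORgt-fm groups. For all of them but Lingo4 the extremes were RORgt-fm_pos_Gata3flox and RORgt-fm_neg_Gata3flox, the groups that chose the genes. Their ratios therefore restate that choice. Lingo4 had the highest mean in RORgt-fm_pos. The other genes had either their highest or their lowest mean in RORgt-fm_pos_Gata3flox, which the choice of the genes partly fixes.

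The other genes of these pathways were followed in 7 lists of 123 genes, of which 106 were tested in the RORgt-fm fit. In the intact comparison 1 rose, 3 fell and the rest did not pass, beside the 2.74% of all genes, and 32 of the 106 had an unadjusted p under 0.05, beside 19.8% of all genes. Lat, the membrane scaffold to which Grap2 binds, rose by 0.90 ± 0.20 on the log2 scale (874 ± 192 against 468 ± 48.4 CPM, edgeR adjusted p = 0.0431). It was the only called gene of 26 in the antigen receptor list, whose median was 0.33 beside 0.00 for all genes. S1pr2, a sphingosine-1-phosphate receptor, fell by 2.42 ± 0.55 (6.80 ± 2.41 against 36.5 ± 11.1 CPM, edgeR adjusted p = 0.0488). Inpp5a, an inositol phosphatase acting in the pathway of Ipmk, had 0 counts in RORgt-fm_pos against 8.63 and 10.3 CPM in RORgt-fm_neg, at least 217.5-fold lower against a floor of 3 counts over the group (edgeR adjusted p = 0.00553). Sh2d1b1, the SLAM adaptor EAT-2, had 0 counts against 76, most of them in 1 library (3.45 against 0.138 CPM), and was at least 49.5-fold lower (edgeR adjusted p = 0.0416). Uncalled genes with small p included the SLAM receptor Ly9 (1.03 ± 0.24, adjusted p = 0.0581 in edgeR), Spn, which carries core 2 glycans (1.46 ± 0.38, 0.0774), Ugcg, which makes glucosylceramide (-0.97 ± 0.24, 0.0645), and the receptor S1pr1 (1.54 ± 0.41, 0.0833). Cers4 (1.09 ± 0.36) and Lrrtm2 (1.53 ± 1.70) were not called, nor were Gab2 and Chst2, at 0 counts in RORgt-fm_pos, and Itpka, at 0 in RORgt-fm_neg. In the Gata3flox reporter comparison 1 of the 106 rose and 1 fell, beside 0.361% of all genes called, and 18 had an unadjusted p under 0.05, beside 7.79% of all genes. Both called genes are named after their values were seen. Ptpn22, a phosphatase that restrains antigen receptor signals, was 688 ± 37.0 against 350.1 ± 36.1 CPM (0.97 ± 0.13, edgeR adjusted p = 0.0168). Inpp4b, a phosphoinositide phosphatase, was 82.9 ± 14.7 against 253 ± 24.5 CPM (-1.61 ± 0.26, edgeR adjusted p = 0.0398). None of the list genes called in intact mice was called in Gata3flox mice. Lat pointed the same way there (0.52 ± 0.16), and S1pr2 the other way (0.74 ± 0.43, 13.9 ± 4.02 against 8.30 ± 1.91 CPM). Inpp5a stood at 5.88 ± 1.37 against 5.21 ± 1.34 CPM and Sh2d1b1 at 26.5 ± 6.98 against 34.7 ± 13.2 CPM. After tamoxifen edgeR called 0 of 99 tested list genes, 8 of which had an unadjusted p under 0.05, beside 6.89% of all genes.

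Over the 10 RORgt-fm libraries, the genes most like each member by Pearson correlation of log2(CPM + 1) were sought among 9137 autosomal genes, 9138 for Gpr34. Grap2 was most like Slamf1 (0.967) and Tmem176b (0.966), and Slamf1 most like Tmem176a (0.981) and Grap2. Ccdc184 was most like Tex101 (0.970) and Ipmk (0.967), and Ipmk most like Rcn1 (0.975) and Ccdc184. For Tespa1 these were Inpp4b (0.970) and Olfr1259 (0.962), for Gcnt1 Paxbp1 and Rbfa (both 0.975), and for Sptssa Samsn1 (0.984) and Uhrf2 (0.967). Gpr34 (Dkkl1 0.947, Tuba4a 0.911) and Lingo4 (Lcp1 0.961, Cnp 0.946) had somewhat lower values. Among the 9 genes themselves the most opposed pairs were Gpr34 with Tespa1 (-0.969) and Grap2 with Ccdc184 (-0.955). Lingo4 stood furthest from the rest, with coefficients from -0.658 with Gcnt1 to 0.705 with Slamf1. These correlations include the libraries that chose the genes and follow the 4 groups, so they are descriptive.

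The 3 single-cell libraries kept 4106 of 4444 skin cells, 564 of 564 day 0 cells and 454 of 454 day 10 cells. Median depth was 2358 counts in skin cells, 2001 at day 0 and 1826.5 at day 10. The skin and day 0 libraries shared 4 cell names and the other pairs 0. Each condition was 1 library, so no test was made, and the 95% intervals below cover counting error only. In the skin library Grap2 stood at 151 CPM (144 to 159) and Ccdc184 at 409.7 CPM (397 to 422), while at day 0 in dorsal skin Grap2 stood at 371 CPM (338 to 407) and Ccdc184 at 128 CPM (108 to 150). Gpr34 (26.5 against 71.4 CPM) and Slamf1 (13.4 against 61.4 CPM) were also lower in the skin library, which held 137 counts of Slamf1 and 107 of Lingo4 in all.

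A tdTomato transcript was found in 115 of 564 day 0 cells and 30 of 454 day 10 cells; the labels do not say what it marks, and the skin library does not list it. At day 0 Ccdc184 showed the widest contrast, with 4 counts (14.7 CPM) in cells with tdTomato and 150 counts (161 CPM) in cells without, a ratio of 0.0911 (0.0245 to 0.238). Gcnt1 (0.666, 0.502 to 0.873) and Ipmk (0.614, 0.376 to 0.962) were also lower in cells with the transcript, and Grap2 was higher at 539 against 322 CPM (1.67, 1.36 to 2.05). At day 10 Ccdc184 (0.268, 0.0862 to 0.634), Gcnt1 (0.462, 0.209 to 0.892) and Ipmk (0.356, 0.114 to 0.846) were lower again. Slamf1, with 7 counts in the 30 cells and 18 in the other 424, was higher (4.73, 1.67 to 11.9), while at day 0 its interval included 1 (1.45, 0.836 to 2.42, with 22 against 52 counts). Grap2 at day 10 had a ratio of 1.08 (0.576 to 1.86), an interval that includes its day 0 value. The intervals of Gpr34, Sptssa, Tespa1 and Lingo4 included 1 on both days, and Lingo4 rested on 6 and 12 counts at day 0 and 1 and 7 at day 10. Cells with tdTomato were somewhat deeper (medians 2341 against 1923 counts at day 0). Among cells with no CD3 transcript the day 0 ratios were 1.68 for Grap2, 0.104 for Ccdc184, 0.673 for Gcnt1 and 0.605 for Ipmk. At day 10 they were 0.331 (0.106 to 0.787) for Ccdc184, 0.490 (0.208 to 0.985) for Gcnt1 and 4.11 (1.16 to 12.1) for Slamf1, and the interval of Ipmk then included 1 (0.423, 0.135 to 1.01). With predicted doublets removed, a choice made after seeing the data, the Ccdc184 ratio was 0.0473 (0.00567 to 0.174, with 2 against 143 counts) at day 0 and 0.173 (0.0355 to 0.513, with 3 against 224 counts) at day 10.

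In the skin library, 241 cells with only type 17 transcripts (Il17a, Il17f, Il22 or Il23r) were set against 1854 cells with only type 2 transcripts (Il1rl1, Il5, Il13 or Il4). Slamf1 (ratio 4.10, 2.29 to 7.10), Lingo4 (3.95, 1.95 to 7.61) and Grap2 (1.36, 1.10 to 1.67) were higher in the type 17 cells. Ccdc184 (0.582, 0.490 to 0.686), Ipmk (0.583, 0.462 to 0.727) and Gcnt1 (0.672, 0.559 to 0.803) were lower. Gpr34 (1.04), Sptssa (0.885) and Tespa1 (1.32) had intervals that included 1. These are the directions that the 6 separated genes had in intact bulk libraries. CD3 transcripts are typical of T cells, and 554 of the 4106 cells held one. These cells also held Il5 (759 against 1276 CPM in cells without) and Gata3 (1276 against 1769 CPM). Whether they were T cells was not tested. Among cells without a CD3 transcript, the ratio was 0.927 (0.683 to 1.24) for Grap2 and 1.05 (0.119 to 4.29, with 2 counts against 21) for Slamf1. Lingo4 stayed at 3.67 (1.52 to 8.04) there, Ipmk at 0.627 (0.482 to 0.804), Ccdc184 at 0.751 (0.630 to 0.889) and Gcnt1 at 0.798 (0.655 to 0.965). Comparing cells with and without a CD3 transcript directly, Slamf1 was 55.4 against 6.17 CPM (8.99, 6.30 to 12.9) and Grap2 238 against 137 CPM (1.74, 1.54 to 1.96). Ccdc184 (0.570), Tespa1 (0.561), Gcnt1 (0.620) and Ipmk (0.739, 0.646 to 0.844) were lower in cells with CD3, and the Lingo4 interval included 1 (1.43, 0.841 to 2.32). In the dorsal libraries, with 57 and 77 CD3-positive cells, Slamf1 was higher with CD3 at day 0 (2.03, 1.05 to 3.67) and its day 10 interval included 1 (1.25, 0.410 to 3.26). The other 8 genes had intervals that included 1 on both days, among them Ccdc184 at 1.45 and 1.18, Tespa1 at 1.89 and 0.567, Gcnt1 at 0.988 and 1.01, and Grap2 at 1.22 and 0.839.

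**Figure D3:**
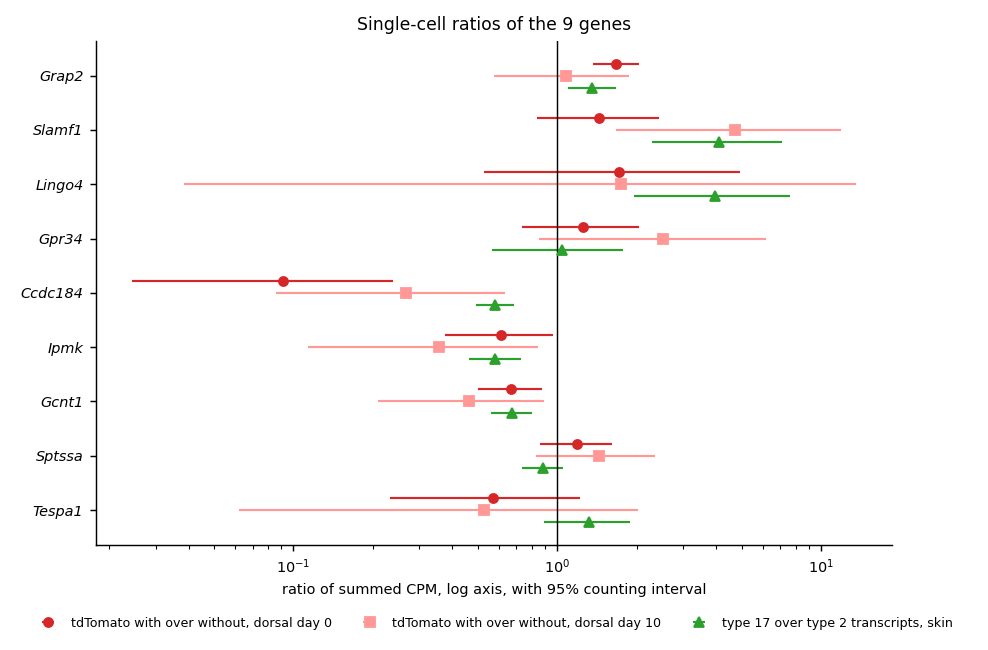
Ratio of summed CPM for each gene, on a log axis with 95% counting intervals; circles and squares set cells with a tdTomato transcript against cells without at day 0 and day 10, triangles set type 17 against type 2 cells of the skin library. Ccdc184, Ipmk and Gcnt1 lie left of 1 in all 3, and Slamf1 and Lingo4 lie right of 1 with wide intervals.

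From day 0 to day 10, Grap2 went from 371 to 193 CPM (ratio 0.519, 0.433 to 0.621) and Ccdc184 from 128 to 260.0 CPM (2.03, 1.65 to 2.51). Ipmk was higher at day 10 (1.57, 1.26 to 1.97), and Slamf1 (0.456, 0.278 to 0.726) and Gpr34 (0.549, 0.360 to 0.823) were lower. Gcnt1 was slightly lower (0.847, 0.719 to 0.996), with an interval that included 1 among cells with no CD3 transcript (0.844, 0.705 to 1.01), and the intervals of Sptssa, Tespa1 and Lingo4 included 1. The 2 libraries also differed in their share of cells by cluster. Clustering of both dorsal libraries, made without the 9 genes, gave cluster 1 with 348 day 0 and 171 day 10 cells, led by 5830411N06Rik, tdTomato and Cx3cr1. Cluster 2, led by Penk, Il5 and Il1rl1, held 137 and 209 cells, and cluster 3, led by heat shock genes, 79 and 74.

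Grap2 stood at 420.1 CPM in cluster 1 and 165 CPM in cluster 2, and Ccdc184 at 28.4 and 386 CPM. Slamf1 (74.3 against 11.9 CPM), Gpr34 (84.4 against 22.5 CPM) and Lingo4 (18.3 against 2.64 CPM, the latter 2 counts) were likewise higher in cluster 1, and Ipmk was lower (79.8 against 235 CPM). Gpr34, which did not separate the intact bulk groups, thus separated these clusters. Within cluster 1, Grap2 was 494 CPM (445 to 547) at day 0 and 258 CPM (207 to 318) at day 10, so its difference between days was present there, while in cluster 2 it was 178 and 155 CPM with overlapping intervals. Ccdc184 within cluster 1 was 20.03 CPM (11.2 to 33.0, 15 counts) at day 0 and 46.9 CPM (26.8 to 76.1, 16 counts) at day 10. Within cluster 2 it was 334.3 CPM (275 to 403) and 426 CPM (366 to 492). Day 10 was the higher in both clusters, and overlap of these intervals does not show that the days were alike. Tespa1 was highest in cluster 3 at 124 CPM (84.4 to 176), against 32.1 and 50.2 CPM in clusters 1 and 2.

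In the skin library Tespa1 was again highest in the cluster led by the heat shock genes Hspa1a and Hspa1b (cluster 3, 155 CPM, 126 to 190). It came next in cluster 2, led by Nfkbid, Tnfsf9 and Gadd45b (90.4 CPM), and stood at 24.9 CPM in cluster 1. Ccdc184 peaked in cluster 2 at 643 CPM (615 to 672). Gcnt1 (516 CPM, 468 to 567) and Ipmk (347 CPM, 308 to 389) peaked in cluster 4, led by Il1rl1 and Il5. Slamf1 stood at 2.38 CPM there (0.288 to 8.59, 2 counts), an interval that overlapped those of clusters 2, 3 and 5. Grap2 was highest in cluster 1 at 198 CPM (187 to 210.5). Clusters 2 and 3 carried 15890 and 27960 CPM of immediate early transcripts against 5421 CPM in cluster 1; the part of cell handling in the Tespa1 and Ccdc184 levels was not tested.

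**Figure D4:**
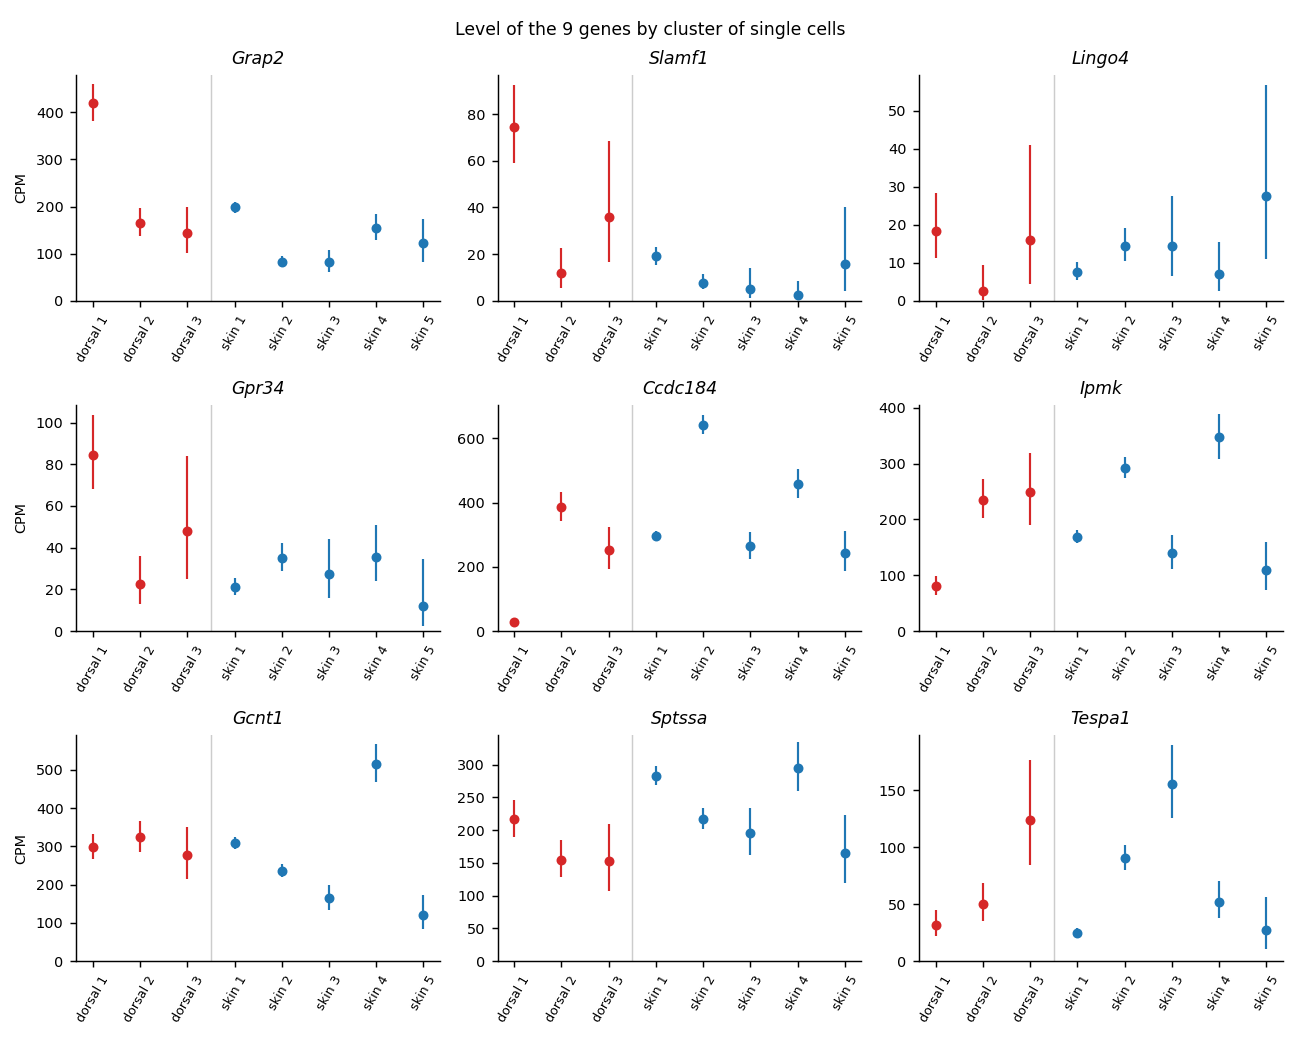
Level of each gene by cluster of single cells, in CPM with 95% counting intervals, red for the 3 dorsal clusters and blue for the 5 skin clusters. Grap2 and Gpr34 are highest and Ccdc184 lowest in dorsal cluster 1, and Tespa1 is highest in dorsal cluster 3 and skin cluster 3.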

How the data were processed

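The authors deposited whole-number read counts per gene for 14 bulk libraries and per gene and cell for 3 single-cell libraries. Reads were aligned to mm10 with HISAT2 2.1.0 and counted with featureCounts of Subread, per the submitters' processing notes; the role of each tool for the single-cell files is not given in the sources used here. The 9 genes, the gene lists and the tests were chosen with earlier results of these data known. Groups were taken from the sample labels.

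Counts were tested with edgeR 4.0.16 (R 4.3.3, limma 3.58.1), using its filter on low counts, TMM scaling and the quasi-likelihood test, with Benjamini-Hochberg adjustment over all tested genes and a threshold of 0.05. The 10 RORgt-fm libraries entered 1 fit and the 4 tamoxifen libraries another. CPM values of the 9 genes and of Gata3 use TMM-scaled library sizes, and marker sums use library totals. Alternatives were DESeq2 1.42.0, other scaling and filters, a replicate block, the L mark, fewer libraries and leaving out each library. Replicates differed by far more than sampling noise.

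Single cells were kept with at least 200 genes and at most 10% of counts from mitochondrial genes, of which the dorsal files list 0. Counts were summed over cells as CPM with exact Poisson intervals; ratios have exact conditional binomial intervals. Cells were clustered with scanpy 1.11.5 (Leiden, resolution 0.5) without the 9 genes. Scrublet marked 3, 11 and 11 cells as doublets, too few in the skin library to have worked, and none were removed except in an alternative. The text names the 9 genes, the 2 list genes with the smallest p in the intact comparison or any called, and the 2 genes most like each of the 9 with a mean of at least 5 CPM. Scripts were tested on simulated data. There the intact comparison recovered 1 of 100 genes changed 2-fold and 29 of 100 changed 4-fold. For the tamoxifen comparison these were 1 and 16 of 100, so a gene that was not called may still differ. Floors are 3 counts, and intervals and floors cover counting error only.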

Additional observations from a re-analysis of the deposited data

How the results depend on the processing

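The count of the 9 genes called in the intact reporter comparison, 1 with edgeR, was 4 with DESeq2 (Grap2, Ccdc184, Gcnt1 and Lingo4), which called 12.7% of all genes, and 3 with no filter on low counts (Grap2, Slamf1 and Lingo4), where 4.85% of all genes were called. It was 0 with only the 4 libraries compared, 0 with the L mark as a covariate and 0 among L2 libraries. Leaving out 1 library at a time gave 0 to 2: without RORgt-fm_neg library 1 it was 0, without RORgt-fm_pos library 2 it was 2 (Ccdc184 added) and without RORgt-fm_neg library 2 it was 2 (Slamf1 added). Grap2, Ccdc184, Gcnt1, Ipmk, Sptssa, Slamf1 and Lingo4 kept their direction in every intact alternative. Tespa1 turned to -0.093 on the log2 scale among L2 libraries and ran from -0.16 to 0.31 when each library was left out, and Gpr34 ran from -0.30 to 0.13. Between Gata3KO and WT the count was 0 under every alternative. When each library was left out there, the log2 difference ran from -0.26 to 0.033 for Ccdc184, -0.34 to 0.095 for Gcnt1, -0.31 to 0.88 for Gpr34 and -0.88 to 0.27 for Ipmk; the other 5 genes kept their direction. With a mean of at least 5 CPM Lingo4 was not tested there. The single-cell Grap2 ratio of type 17 to type 2 cells turned to 0.927 among cells with no CD3 transcript. The causes of these shifts were not tested. Lingo4, with 107 counts or fewer in each single-cell library, and Slamf1 were limited by depth.

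With the replicate number as a block, the intact count was 0 and Lingo4 had an edgeR adjusted p of 0.0853. Replicate numbers were not shown to pair the samples: deviations of libraries with the same number correlated at 0.003 in intact mice, 0.023 to 0.16 in Gata3flox mice and 0.023 after tamoxifen.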
